A study of Mus musculus with 46 samples.

Results

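The 27 genes described here make cholesterol or are among the classic targets and regulators of SREBP2 (sterol regulatory element binding protein 2), and were taken by gene symbol out of 53465 genes counted. They comprise 8 genes of the mevalonate steps, 2 of the squalene steps, 10 of the sterol steps, the acetoacetate-activating enzyme gene Aacs, and 6 genes of regulation and transport. All 27 were in the count table. At postnatal day 23, 16 mice of the C57BL/6 strain gave 1 mRNA library per organ from up to 3 organs: cerebellum, kidney and liver. Every animal carried P195A, a substitution in the Z-nucleic-acid-binding domain of the RNA editing enzyme ADAR1, paired with a second allele that lacks (P195A/p150-) or keeps (P195A/p150+) p150, the interferon-inducible isoform of ADAR1. The groups are called p150-negative and p150-positive below after that second allele. The P195A allele itself still encodes p150, so the first group is not devoid of the protein. The labels give 8 animals of each genotype. Counts are per gene and do not separate the isoforms of ADAR1, so the genotype labels were not checked here. Titles name separate animals, so a replicate is an animal.

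Cholesterol is built from acetyl-CoA through mevalonate, isoprenoid pyrophosphates, squalene and a series of sterols, by enzymes of the cytosol and of the endoplasmic reticulum. When sterol in that membrane is low, SCAP carries SREBP2 to the Golgi, where it is cut, and the freed fragment enters the nucleus and raises transcription of nearly every gene of the pathway. When sterol is high, INSIG proteins hold SCAP and SREBP2 back, and oxysterols turn on the LXR receptors, whose targets export cholesterol. The liver is a main site of synthesis, while the brain makes its own cholesterol because lipoproteins do not cross into it.

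RNA of another organ was present in 5 libraries, which were left out of every value unless stated. The liver library of p150-negative animal 2 held 9179 CPM (counts per 1000000) of summed kidney tubule markers and 468 CPM of summed hepatocyte markers. The 3 kidney libraries left out held 0.833 to 7.27 CPM of tubule markers. Their hepatocyte markers summed to 2136.5 CPM (p150-negative animal 2), 19827 CPM (p150-negative animal 11) and 18366 CPM (p150-positive animal 12). Kept kidneys held 418 to 1348 CPM of hepatocyte markers. The cerebellar library of p150-positive animal 7 held 164 CPM of cerebellar neuron markers, against 2466 to 6418 CPM in the cerebella kept. It also held 55360 CPM of oligodendrocyte markers (11976 to 27545 CPM in those kept) and 2139 CPM of astrocyte markers (2863 to 5747 CPM). Kept were 14 livers (7 of each genotype), 12 kidneys (5 p150-negative) and 15 cerebella (8 p150-negative). Their totals ran from 0.27 to 6.2 M counts (M, 1000000). The shallowest library of each tissue was p150-negative: kidney of animal 3 (0.27 M), liver of animal 16 (0.53 M) and cerebellum of animal 11 (0.94 M). Summed hepatocyte markers were 53622 to 87979 CPM in p150-negative and 56896 to 82636 CPM in p150-positive livers, and tubule markers were 10169 to 20671 CPM in the kidneys kept.

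Promoters are shown for the 3 enzyme genes with the lowest adjusted p in liver and a listed promoter, and for Srebf2, Insig1 and Insig2, the genes of the SREBP2 precursor and of its retention factors. The sequences are from RefSeq (GRCm38.p6), run 5′ to 3′ on the gene's strand from 250 bases before to 50 bases after the listed start, and match chr19:6067801-6068100 (minus strand), chrX:72918271-72918570 (plus), chr8:64733529-64733828 (minus), chr15:82147019-82147318 (plus), chr5:28071162-28071461 (plus) and chr1:121332540-121332839 (minus, the listed start of 3 that is nearest to the GENCODE gene start). Capitals mark CCAAT, the box bound by NF-Y, a factor known to act beside SREBP at sterol-responsive promoters, and CACNCCAC, the core of a classic sterol regulatory element, each read on both strands.
Tm7sf2: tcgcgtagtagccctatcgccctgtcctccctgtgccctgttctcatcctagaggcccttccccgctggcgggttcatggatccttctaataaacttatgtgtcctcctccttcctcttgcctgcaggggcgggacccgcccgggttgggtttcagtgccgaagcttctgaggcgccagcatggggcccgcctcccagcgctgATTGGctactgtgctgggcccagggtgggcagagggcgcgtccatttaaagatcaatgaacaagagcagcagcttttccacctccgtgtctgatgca
Nsdhl: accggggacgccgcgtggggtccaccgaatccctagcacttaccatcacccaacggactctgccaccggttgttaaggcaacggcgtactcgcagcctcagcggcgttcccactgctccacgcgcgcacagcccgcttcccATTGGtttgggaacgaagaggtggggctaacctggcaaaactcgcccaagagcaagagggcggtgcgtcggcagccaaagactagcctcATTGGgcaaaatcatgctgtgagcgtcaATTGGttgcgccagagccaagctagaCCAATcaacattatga
Msmo1: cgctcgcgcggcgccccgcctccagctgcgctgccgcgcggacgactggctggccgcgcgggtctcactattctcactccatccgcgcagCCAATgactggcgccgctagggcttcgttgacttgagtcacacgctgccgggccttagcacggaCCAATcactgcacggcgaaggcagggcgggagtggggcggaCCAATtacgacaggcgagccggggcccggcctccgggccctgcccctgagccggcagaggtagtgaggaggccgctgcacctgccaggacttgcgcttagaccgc
Srebf2: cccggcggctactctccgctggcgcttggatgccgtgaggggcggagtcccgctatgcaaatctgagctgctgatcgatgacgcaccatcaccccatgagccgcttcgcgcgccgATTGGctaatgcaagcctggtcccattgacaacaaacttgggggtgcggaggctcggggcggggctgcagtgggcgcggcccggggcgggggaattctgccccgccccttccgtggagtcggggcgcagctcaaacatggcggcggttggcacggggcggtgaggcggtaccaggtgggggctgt
Insig1: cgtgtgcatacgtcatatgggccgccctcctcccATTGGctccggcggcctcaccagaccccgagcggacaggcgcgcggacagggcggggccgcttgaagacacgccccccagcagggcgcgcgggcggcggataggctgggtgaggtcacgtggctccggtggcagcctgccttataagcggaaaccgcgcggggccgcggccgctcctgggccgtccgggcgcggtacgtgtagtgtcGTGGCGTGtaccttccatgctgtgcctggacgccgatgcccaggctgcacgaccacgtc
Insig2: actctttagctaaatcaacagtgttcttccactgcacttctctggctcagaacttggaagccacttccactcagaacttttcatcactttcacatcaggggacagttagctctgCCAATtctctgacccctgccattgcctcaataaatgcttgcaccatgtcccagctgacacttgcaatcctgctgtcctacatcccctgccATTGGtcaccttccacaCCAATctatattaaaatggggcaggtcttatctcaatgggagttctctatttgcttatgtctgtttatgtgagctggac

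In the promoters shown, CCAAT stands 4 times in Nsdhl, 3 times each in Msmo1 and Insig2, and 1 time each in Tm7sf2, Srebf2 and Insig1. A listed promoter was found for 23 of the 27 genes, with 29 starts in all. CCAAT stood in 19 of these 29 promoters, against 37.4% of the 32851 promoters in the table. CACNCCAC stood in 3 of the 29, those of Acat2, Hmgcs1 and Insig1, against 6.2% of all promoters. The longer TCACNCCAC, which contains CACNCCAC, stood in that of Hmgcs1 alone among the 29, against 1.24% of all. The 30 bases around the Hmgcs1 match, chosen after the search, lie at chr13:119690204-119690233 on the plus strand, with CACNCCAC in capitals.
Hmgcs1: cgtcaccgtctCACCCCACttcccaggtcc
These matches describe letters in a 300-base window, and binding was not tested.

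In liver, 23 of the 26 members that could be tested were lower in p150-negative animals and 0 were higher. Tests were edgeR quasi-likelihood fits over all genes of a tissue with Benjamini-Hochberg adjustment and a threshold of 0.05. Over all 9843 genes tested in liver, 4.76% were lower and 6.94% higher. The median log2 fold change of the members, p150-negative over p150-positive, was -2.44, and that of all genes tested was -0.04. Summed over the 19 enzyme genes of the mevalonate, squalene and sterol steps that were tested, mRNA in p150-positive livers averaged 4386 ± 1362 CPM (SD, n = 7), and that in p150-negative livers 813 ± 311 CPM (SD, n = 7), a 5.40-fold difference of the means. The highest p150-negative liver (1418 CPM) lay below the lowest p150-positive liver (2866 CPM). In bulk tissue, fewer cells of a type and less RNA per cell cannot be told apart.

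**Figure D1:**
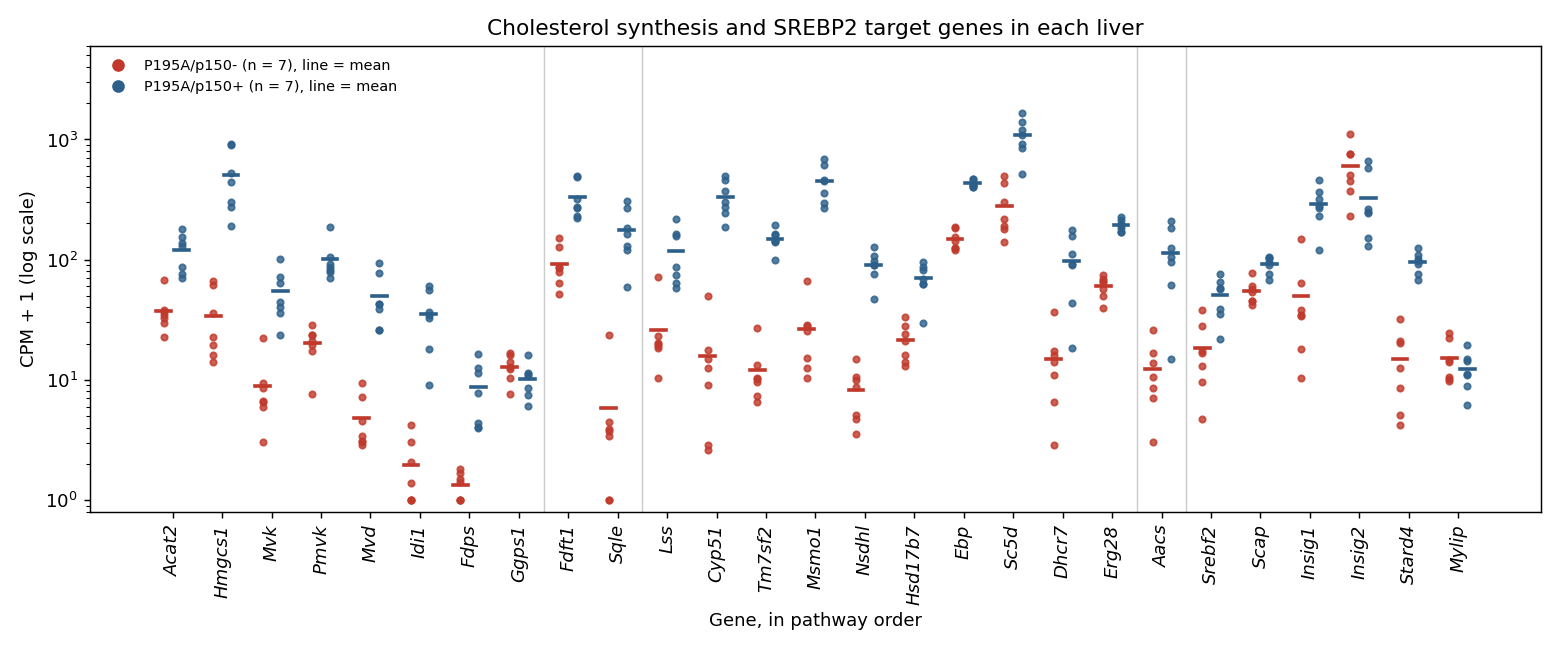
CPM plus 1 (log scale) of the 27 genes in each kept liver, in pathway order from mevalonate to regulators, with P195A/p150- animals in red and P195A/p150+ animals in blue (7 each, points) and group means as lines. The groups stand apart for most enzymes and overlap for Insig2 (means 595 CPM in p150-negative and 324 CPM in p150-positive livers), Ggps1, Mylip and others.

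The mevalonate steps turn acetyl-CoA into the isoprenoid building blocks, and 6 of the 7 members tested there fell in liver. Acat2, the cytosolic thiolase that starts the pathway, ranged over 21.8 to 67.0 (median 33.8) CPM in p150-negative and 69.9 to 179 (median 129) CPM in p150-positive livers. Hmgcs1, which adds the next acetyl unit to make HMG-CoA, ranged over 13.2 to 65.0 (median 21.9) CPM in p150-negative and 189.9 to 908 (median 442) CPM in p150-positive livers. Neither pair of ranges overlapped, and the falls were 3.15-fold for Acat2 (log2 fold change -1.65 ± 0.24, SE) and 15.1-fold for Hmgcs1 (-3.91 ± 0.42, adjusted p = 3.06e-06). The kinases Mvk and Pmvk, which phosphorylate mevalonate in turn, both fell. Mvk ranged over 2.03 to 21.3 (median 5.64) CPM in p150-negative and 22.8 to 99.7 (median 43.1) CPM in p150-positive livers and fell 6.52-fold (-2.70 ± 0.38, adjusted p = 5.55e-05). Pmvk ranged over 6.59 to 27.7 (median 20.2) CPM in p150-negative and 69.5 to 187 (median 86.1) CPM in p150-positive livers and fell 5.17-fold (-2.37 ± 0.26, adjusted p = 4.12e-06). Mvd, which decarboxylates the product to isopentenyl pyrophosphate, ranged over 1.88 to 8.42 (median 2.38) CPM in p150-negative and 25.1 to 92.2 (median 41.7) CPM in p150-positive livers and fell 12.0-fold (-3.58 ± 0.38, adjusted p = 3.06e-06).

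Idi1, the isomerase that makes dimethylallyl pyrophosphate, had 0 reads in 3 of 7 p150-negative livers and at most 8 in the others. It ranged over 0 to 3.21 (median 0.396) CPM in p150-negative and 8.10 to 59.0 (median 33.5) CPM in p150-positive livers, with no overlap, and its fitted log2 fold change was -4.89 ± 0.55 (adjusted p = 5.10e-06). Fdps, which makes farnesyl pyrophosphate, did not pass the filter on low counts in any tissue. Its reads numbered 0 to 2 in each p150-negative liver (6 in all) and 5 to 45 in each p150-positive liver (164 in all), again with no overlap. Of the 50-base words in Fdps transcripts, 26.2% also occur in transcripts of other genes, and 26.7% of its exon bases lie in an annotated gene on the same strand, so its counts are uncertain. Ggps1, which leads away from sterols to geranylgeranyl pyrophosphate, did not pass the test: 6.59 to 15.6 (median 11.9) CPM in p150-negative and 5.09 to 15.0 (median 9.74) CPM in p150-positive livers, log2 fold change 0.39 ± 0.28, adjusted p = 0.457.

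Acat2 shares 39.1% of its 50-base words with Acat3, so reads of the pair may have been split or dropped in counting. Acat3 itself was 67.0 ± 11.5 CPM in p150-negative and 81.3 ± 16.3 CPM in p150-positive livers (SD, n = 7 each; log2 fold change -0.25 ± 0.18, adjusted p = 0.461). Idi2, the paralog of Idi1, had 0 reads in the 14 livers, which allows at most 0.0795 CPM over their summed total (3 counts, counting error only). Among the members, Idi1 shares 17.7% of its words with the annotated gene Gm13502, and genes on the opposite strand cover 12.1% of the exon bases of Hmgcs1 and 13.2% of those of Scap.

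Both squalene-step genes fell in liver. Fdft1, squalene synthase, ranged over 50.7 to 151 (median 83.7) CPM in p150-negative and 221 to 496 (median 271) CPM in p150-positive livers, without overlap, and fell 3.48-fold (-1.80 ± 0.24, adjusted p = 3.37e-05). Its exons overlap Ctsb on the opposite strand over 18.3% of its exon bases, and the strand setting of the counting is not given in the sources used here. Sqle, the epoxidase that is a rate-limiting step after HMG-CoA reduction, ranged over 0 to 22.5 (median 2.74) CPM in p150-negative and 58.7 to 304 (median 161) CPM in p150-positive livers. It had the lowest fitted log2 fold change of the 26 members, -5.03 ± 0.59 (adjusted p = 7.92e-06), with 0 reads in 2 p150-negative livers and 56 of the group's 90 reads in animal 9.

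All 10 sterol-step genes fell in liver, by 2.84-fold to 21.2-fold. The first of these steps close and trim the ring system. Lss, which folds squalene epoxide into lanosterol, ranged over 9.39 to 70.2 (median 19.0) CPM in p150-negative and 56.6 to 218 (median 86.0) CPM in p150-positive livers and fell 4.41-fold (-2.14 ± 0.37, adjusted p = 4.71e-04), with 6 of 7 p150-negative livers below the lowest p150-positive one. Cyp51, the lanosterol demethylase, ranged over 1.59 to 48.9 (median 11.5) CPM in p150-negative and 186 to 495 (median 298) CPM in p150-positive livers, and fell 21.2-fold (-4.40 ± 0.48, adjusted p = 3.89e-06). The sterol reductase gene Tm7sf2 had the lowest adjusted p of all members: 5.58 to 26.1 (median 9.24) CPM in p150-negative and 97.7 to 192 (median 143) CPM in p150-positive livers, log2 fold change -3.71 ± 0.29, adjusted p = 1.07e-07. Its groups did not overlap, and its promoter, shown above, holds 1 CCAAT box. A neighbouring gene, Vps51, covers 12.1% of Tm7sf2's exon bases on the same strand.

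Msmo1, which oxidises the methyl groups on the sterol ring, ranged over 9.39 to 65.8 (median 24.2) CPM in p150-negative and 269.6 to 687 (median 446) CPM in p150-positive livers, without overlap. The fall was 16.8-fold (-4.07 ± 0.36, adjusted p = 4.83e-07). Nsdhl and Hsd17b7 complete the removal of those methyl groups. Nsdhl fell 11.7-fold, from 89.7 ± 24.7 CPM to 7.24 ± 4.06 CPM (SD, n = 7 each; adjusted p = 3.04e-07), without overlap between the groups. Hsd17b7 ranged over 12.0 to 32.1 (median 20.2) CPM in p150-negative and 28.5 to 94.6 (median 67.9) CPM in p150-positive livers and fell 3.20-fold (-1.68 ± 0.28, adjusted p = 3.28e-04), and its ranges overlapped. Erg28, the endoplasmic reticulum protein that holds this demethylation complex together, fell 3.15-fold with no overlap (-1.66 ± 0.17, adjusted p = 2.44e-06).

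The last sterol steps rearrange and reduce double bonds. Ebp, the sterol isomerase, had the smallest fall among the enzymes that fell, 2.84-fold, and a narrow spread: 120.2 to 187 (median 142) CPM in p150-negative and 402 to 472 (median 421) CPM in p150-positive livers. Its log2 fold change was -1.50 ± 0.16 (adjusted p = 3.06e-06). Sc5d, the desaturase, was the most abundant member of the p150-positive liver per kilobase of exon (224 CPM per kb) and fell 3.87-fold, from 1092 ± 379.9 CPM to 279 ± 137 CPM (SD, n = 7 each; -1.95 ± 0.27, adjusted p = 4.62e-05). Dhcr7, the reductase that turns the last intermediate of this branch into cholesterol, ranged over 1.88 to 35.7 (median 13.2) CPM in p150-negative and 17.4 to 174 (median 90.7) CPM in p150-positive livers, and 1 p150-negative liver lay inside the p150-positive range. The fall was 6.47-fold (-2.69 ± 0.44, adjusted p = 2.61e-04). Aacs, which activates acetoacetate for lipid synthesis, fell 9.65-fold (-3.27 ± 0.47, adjusted p = 6.46e-05), and its ranges overlapped.

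The size of the fall thus differed widely between steps, from log2 -5.03 for Sqle to -1.50 for Ebp among the enzymes that fell. Per kilobase, p150-positive livers held most of Sc5d (224 CPM per kb), Ebp (186), Hmgcs1 (110.0), Insig1 (94) and Insig2 (93.3). In p150-negative livers the order per kilobase was headed by Insig2 (171 CPM per kb), Ebp (63.9) and Sc5d (57.3), and Hmgcs1 stood at 7.13. Spread within the p150-positive livers also differed between genes. The coefficient of variation was 6.80% for Ebp and 11.5% for Erg28, and 58.3% for Hmgcs1 and 59.8% for Aacs.

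Some animals were high or low in many of the genes. Among the 23 members that fell, p150-negative animal 9 had the group's highest level in 20, and animal 16, the shallowest liver library, the lowest in 13. In the p150-positive livers animal 12 was highest in 15, and animals 15 and 13 were lowest in 12 and 9. Animal 9 had a summed enzyme level of 1418 CPM against 494 to 967 CPM in the other 6 p150-negative livers. It also had the lowest summed neutrophil markers (398 CPM, others 500.1 to 1538) and macrophage markers (946 CPM, others 1284 to 2443) of its group, and their part in its level was not tested. Without animal 9 the difference of the group means of the enzyme sum was 6.16-fold in place of 5.40-fold, a setting chosen after seeing the data.

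Among the regulators, 4 of 6 fell in liver. Srebf2, which encodes the SREBP2 precursor and is its own target, ranged over 3.76 to 37.3 (median 15.9) CPM in p150-negative and 20.8 to 75.1 (median 55.9) CPM in p150-positive livers. The ranges overlapped and the fall was 2.72-fold (-1.44 ± 0.32, adjusted p = 0.00411). Scap, the escort that carries SREBP2 out of the endoplasmic reticulum, ranged over 41.3 to 75.7 (median 52.5) CPM in p150-negative and 67.1 to 104 (median 95.3) CPM in p150-positive livers and fell 1.63-fold (-0.71 ± 0.17, adjusted p = 0.00907). Stard4, which moves cholesterol between membranes, ranged over 3.17 to 31.3 (median 11.6) CPM in p150-negative and 67.0 to 124 (median 95.7) CPM in p150-positive livers and fell 6.61-fold, without overlap (-2.72 ± 0.36, adjusted p = 2.88e-05). Mylip, an LXR target whose product degrades lipoprotein receptors, was at 14.1 ± 5.97 CPM and 11.3 ± 4.38 CPM (SD, n = 7 each) and did not pass the test (0.39 ± 0.34, adjusted p = 0.552).

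The 2 INSIG genes, whose products both retain SCAP, had log2 fold changes of opposite sign in liver, and only that of Insig1 passed the test. Insig1, itself an SREBP target, ranged over 9.39 to 148 (median 33.5) CPM in p150-negative and 120.4 to 457 (median 279) CPM in p150-positive livers, and fell 5.71-fold (-2.51 ± 0.42, adjusted p = 3.19e-04). Only animal 9 of the p150-negative livers lay inside the p150-positive range. Insig2, whose liver transcript is known to be held down by insulin, ranged over 229 to 1100.5 (median 502) CPM in p150-negative and 128 to 659.6 (median 246) CPM in p150-positive livers. Its log2 fold change of 0.95 ± 0.40 did not pass (adjusted p = 0.153). Of all settings run, Insig2 passed only in the fit without p150-positive animal 13 (1.19, adjusted p = 0.046). The ratio of Insig2 to Insig1 CPM was 3.03 to 53.4 (median 23.3) in p150-negative and 0.406 to 4.81 (median 0.989) in p150-positive livers. In kidney the ratio was 1.92 to 5.15 and 2.08 to 5.6 in the 2 groups (n = 4, since animal 3 had no Insig1 read, and n = 7). In cerebellum it was 0.245 to 1.496 (median 1.23, n = 8) in p150-negative and 1.15 to 2.35 (median 1.64, n = 7) in p150-positive animals, so the p150-negative median was the lower one there and the higher one in liver, with overlapping ranges in each tissue.

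**Figure D2:**
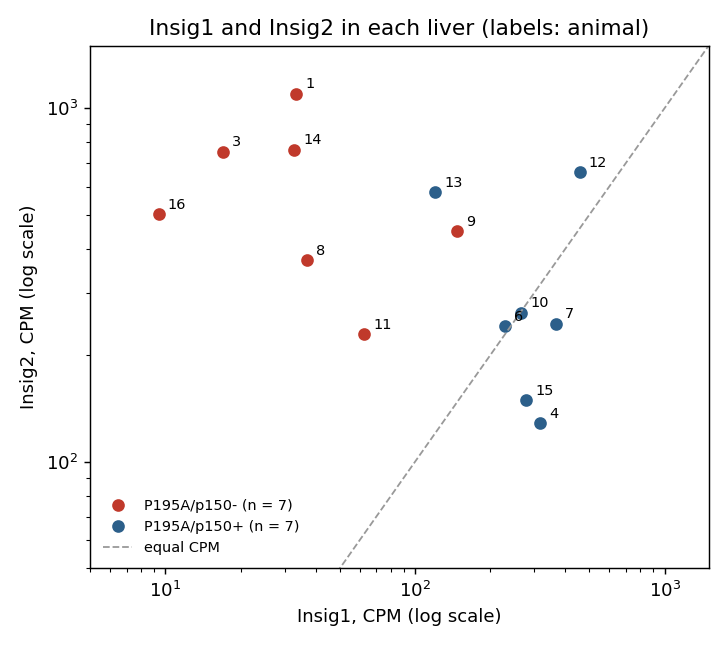
Insig1 against Insig2 in each liver (CPM, both axes log scale), with P195A/p150- animals in red, P195A/p150+ animals in blue, animal numbers beside the points and a dashed line at equal levels. All 7 p150-negative livers lie above the line (ratios 3.03 to 53.4), whereas the p150-positive livers lie on both sides (0.406 to 4.81).

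Other genes of sterol and lipid metabolism, grouped in lists, did not all follow the members in liver. Of 8 further SREBP-responsive genes, 6 fell and 0 rose. Rdh11, a retinol dehydrogenase gene under SREBP, fell 5.83-fold (-2.54 ± 0.27, adjusted p = 2.61e-06), and Acss2, which makes acetyl-CoA from acetate, fell 7.78-fold (-2.96 ± 0.36). The fatty acid genes Elovl6 and Fasn fell 4.54-fold and 6.26-fold. Of 4 electron donors for the sterol oxidases 2 fell, Cyb5b (3.35-fold) and Cyb5r3 (2.05-fold). Of 8 tested genes of SREBP processing and sterol sensing 0 passed in edgeR, and 1 had an unadjusted p under 0.05, Srebf1 (-1.23 ± 0.42, adjusted p = 0.0676), which encodes SREBP1. Of 11 tested genes of the isoprenoid branch 0 passed and 1 had an unadjusted p under 0.05, Pggt1b (0.74 ± 0.35, adjusted p = 0.211). DESeq2 called 1 gene of the first of these lists lower, Srebf1, and 0 of the isoprenoid branch. The number of all liver genes that DESeq2 called is not given here. Over all 9843 genes tested in liver, 2292 had an unadjusted p under 0.05.

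Of 11 tested genes of LXR receptors, LXR targets, efflux and storage, 5 passed as higher in liver and 0 as lower. The log2 fold change was negative for 3 of the 11. DESeq2 called 6 of the 11 higher, the same 5 and Smpdl3a (named after its values were seen), and 0 lower. Soat1, which esterifies cholesterol, rose 2.52-fold (1.33 ± 0.32, adjusted p = 0.00817) and the efflux transporter Abcg1 rose 2.72-fold (1.44 ± 0.39, adjusted p = 0.0186). Abcg5, which with Abcg8 secretes sterols into bile, ranged over 177 to 301 (median 211) CPM in p150-negative and 66.5 to 174 (median 166) CPM in p150-positive livers without overlap, and rose 1.70-fold. Abca1, the transporter that loads HDL, rose 1.69-fold, and Abcg8, named after its values were seen, 1.75-fold. Soat1, Abca1 and Abcg1 are also expressed in macrophages, whose summed markers were 946 to 2443 CPM in p150-negative and 333 to 735 CPM in p150-positive livers, and the part of this in their rise was not tested. Of 8 tested genes of sterol breakdown and uptake 0 passed in edgeR. An unadjusted p was under 0.05 for 4 of them, against 2292 of all 9843 genes tested in liver. In DESeq2 1 of the 8, Cyp27a1, was lower. The 4 included Cyp7a1, the rate-limiting enzyme of bile acid synthesis (-1.35 ± 0.49, adjusted p = 0.0878), and Cyp27a1, which oxidises cholesterol in the mitochondrion (-0.70 ± 0.25, adjusted p = 0.0751).

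**Figure D3:**
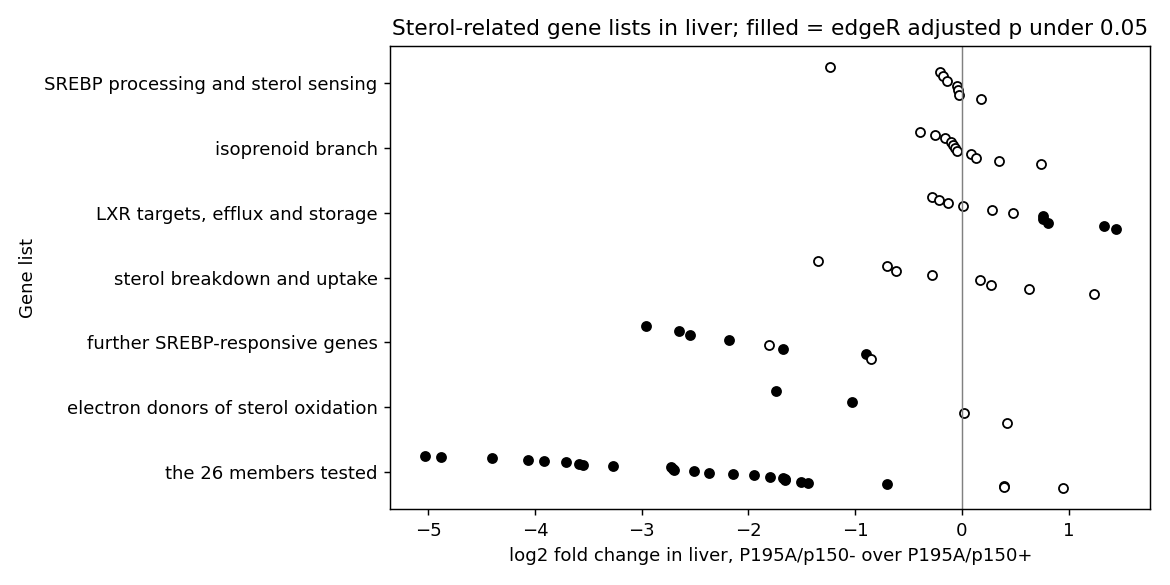
Log2 fold change in liver, P195A/p150- over P195A/p150+, of each tested gene in 6 lists of sterol-related genes and of the 26 members tested (points, 7 animals per group, filled where edgeR's adjusted p is under 0.05). Filled points lie below 0 for the members, the further SREBP-responsive genes and the electron donors, and above 0 for the list of LXR, efflux and storage genes (0.76 to 1.44).

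Markers of other cells differed between the livers too. All 6 neutrophil markers rose, with sums of 398 to 1538 CPM in p150-negative and 22.6 to 169 CPM in p150-positive livers, and 6 of 7 macrophage markers rose. Of 7 hepatocyte markers 2 fell (Ttr and Ass1), 1 rose (Fgb), and the median log2 fold change was -0.18. The part of these in the fall of the 23 members was not tested. The adrenal cortex, a tissue rich in cholesterol synthesis, was checked as well. Cyp11b1, Cyp21a1 and Cyp11b2 had 0 reads in every kept liver. The summed adrenal markers were 0.802 to 5.81 CPM in p150-negative and 4.76 to 92.9 CPM in p150-positive livers. Hsd3b1 gave 45 of the p150-negative and 797 of the p150-positive adrenal marker reads, and the rest came from Star (13 and 36) and Cyp11a1 (2 and 0). The left-out liver library of animal 2 held 3864 CPM of summed adrenal markers. With that library put back, the count of members that fell was again 23. Over all genes, 299 were then lower and 441 higher, in place of 469 and 683.

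In kidney, no member passed the test. edgeR called 0 of 26 members lower and 0 higher, against 0.309% and 0.385% of the 11957 genes tested. An unadjusted p was under 0.05 for 4 members, against 979 of the 11957 genes. DESeq2 called 1 member lower, Mvd, and 159 of all genes lower. The median log2 fold change of the members was -0.27, against -0.07 for all genes. Summed enzyme mRNA in p150-negative kidneys averaged 1167 ± 189 CPM (SD, n = 5), that in p150-positive kidneys averaged 1345 ± 179.5 CPM (SD, n = 7), and the ranges overlapped (1002 to 1488 and 1162 to 1595 CPM). The kidney of p150-negative animal 3, with 0.27 M counts, had 0 reads for 14 of the 27 genes, and that of animal 8 held 107 CPM of adrenal cortex markers against at most 9.02 CPM in the p150-positive kidneys. Without animal 3 the difference of the means was 1.15-fold as with it, and without animal 8 it was 1.11-fold, both chosen after seeing the data.

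Mvd had the lowest p of the members in kidney. It stood at 25.7, 0, 16.1, 28.1 and 17.2 CPM in p150-negative animals 1, 3, 8, 9 and 16, and at 34.3 to 58.2 (median 43.1) CPM in the 7 p150-positive kidneys. All 5 lay below the p150-positive range, but the 0 of animal 3 came from a library of 0.27 M counts and is uninformative. The share of all kidney genes whose groups do not overlap was not counted. The log2 fold change was -1.35 ± 0.41 (edgeR adjusted p = 0.209), and without animal 3 it was -1.15 with an adjusted p of 0.0297. Cyp51 was -1.15 ± 0.39, Aacs -1.13 ± 0.44 and Hmgcs1 -0.43 ± 0.19, with adjusted p of 0.287, 0.411 and 0.566.

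Hmgcs1, the most abundant member per kilobase in p150-positive kidneys (84.2 CPM per kb), stood at 287, 442, 284, 333 and 232 CPM in the same 5 animals, and at 282 to 459 (median 431) CPM in the p150-positive ones. These ranges overlapped. The other mevalonate genes had log2 fold changes of -0.55 ± 0.53 (Idi1), -0.30 ± 0.45 (Acat2), -0.16 ± 0.44 (Pmvk), 0.17 ± 0.50 (Ggps1) and 0.43 ± 0.55 (Mvk), and none passed. The squalene genes were at -0.20 ± 0.40 (Fdft1) and -0.33 ± 0.41 (Sqle). Of the sterol steps, Tm7sf2 was at -0.35 ± 0.50, Dhcr7 at -0.32 ± 0.46, Ebp at -0.30 ± 0.21, Lss at -0.24 ± 0.45, Msmo1 at -0.15 ± 0.34, Sc5d at -0.01 ± 0.48, Nsdhl at 0.01 ± 0.35, Erg28 at 0.38 ± 0.25 and Hsd17b7 at 0.61 ± 0.42. The regulators lay between -0.87 ± 0.47 for Srebf2 and 0.14 ± 0.31 for Mylip, with Scap at -0.72 ± 0.36, Insig2 at -0.37 ± 0.44, Insig1 at -0.04 ± 0.46 and Stard4 at 0.04 ± 0.22. Several of these standard errors exceed the change, and a p above the threshold does not show that the groups were alike.

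In the other lists of sterol-related genes, Scd1, the fatty acid desaturase that answers to SREBP1 and to insulin, was the only gene that edgeR called in kidney, and fell 11.0-fold, from 56.2 ± 17.5 CPM (SD, n = 7) to 4.66 ± 3.52 CPM (SD, n = 5; adjusted p = 0.00176). Fasn was at -1.06 ± 0.34 with an edgeR adjusted p of 0.253, and Srebf1 at 0.07 ± 0.49. DESeq2 called Fasn lower, as well as the LXR receptor gene Nr1h3. Acat3 was at 1.23 ± 0.56 (adjusted p = 0.575). Of the 3 neutrophil markers tested in kidney, 1 rose in edgeR, S100a8 (3.48 ± 0.64, adjusted p = 0.0147), and all 3 had an unadjusted p under 0.05. Summed neutrophil markers were 108 to 223 CPM in p150-negative and 6.77 to 81.6 CPM in p150-positive kidneys, and their part in the members' levels was not tested.

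In cerebellum, most members had small negative fold changes and none passed the threshold. edgeR called 0 of 26 members lower and 0 higher, against 0.274% and 0.723% of the 13146 genes tested. An unadjusted p was under 0.05 for 10 members, against 1258 of the 13146 genes. DESeq2 called 5 members lower, Hmgcs1, Cyp51, Msmo1, Sc5d and Dhcr7, and 113 of all genes lower. The log2 fold change was negative in 24 of 26 members, against 6520 of 13146 genes, with a median of -0.40 against 0.00 for all genes. Summed enzyme mRNA in p150-negative cerebella averaged 1573 ± 153 CPM (SD, n = 8), and that in p150-positive cerebella 2065 ± 174 CPM (SD, n = 7), a 1.31-fold difference of the means. The groups did not overlap (1276 to 1813 and 1869.8 to 2369 CPM), with or without animal 11, whose library was the shallowest and gave the lowest sum (1.28-fold without it, chosen after seeing the data).

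Cyp51 ranged over 51.9 to 181 (median 146) CPM in p150-negative and 186 to 289 (median 226) CPM in p150-positive cerebella, and was the only member there whose groups did not overlap. The share of all genes whose groups do not overlap was not counted. The test of Cyp51 did not pass. Its log2 fold change was -0.78 ± 0.19 (adjusted p = 0.0515). Msmo1 was at -0.64 ± 0.15 (adjusted p = 0.0515) and ranged over 128 to 264 (median 153) CPM in p150-negative and 200.1 to 348 (median 247) CPM in p150-positive cerebella. Hmgcs1 was at -0.64 ± 0.16 (adjusted p = 0.0792), with 7 of 8 p150-negative cerebella below the lowest p150-positive one. Dhcr7 was at -0.83 ± 0.23 (adjusted p = 0.123) and Sc5d at -0.46 ± 0.13 (adjusted p = 0.144). Without animal 11, whose cerebellum had 0.94 M counts, edgeR called Cyp51, Msmo1 and Dhcr7 lower, and without p150-negative animal 16 it called Hmgcs1, Cyp51 and Msmo1. Over all genes, 64 were called lower without animal 11, against 36 in the main fit.

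The remaining mevalonate and squalene genes lay between -0.71 ± 0.37 for Mvd and 0.24 ± 0.24 for Pmvk. Idi1 was at -0.69 ± 0.26, Sqle at -0.45 ± 0.18, Fdft1 at -0.44 ± 0.16, Mvk at -0.37 ± 0.33, Ggps1 at -0.16 ± 0.21 and Acat2 at -0.01 ± 0.16. Of the sterol steps, Lss was at -0.65 ± 0.40, Tm7sf2 at -0.41 ± 0.37, Ebp at -0.35 ± 0.16, Nsdhl at -0.24 ± 0.39, Hsd17b7 at -0.14 ± 0.28 and Erg28 at -0.11 ± 0.12. Aacs was at -0.38 ± 0.23. The regulators were near 0 for Scap (-0.02 ± 0.21), Insig1 (-0.08 ± 0.17) and Srebf2 (-0.16 ± 0.17). Stard4 was at -0.59 ± 0.32, Insig2 at -0.51 ± 0.28 and Mylip at 0.50 ± 0.23 (adjusted p = 0.509).

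Of the 8 further SREBP-responsive genes 1 passed in cerebellum, the desaturase gene Fads1, which fell 1.73-fold (-0.79 ± 0.18, adjusted p = 0.0279). Acss2 was at -0.50 ± 0.15 (edgeR adjusted p = 0.157) and was called lower by DESeq2. Nr1h3, which encodes an LXR receptor, was at -1.48 ± 0.47 (edgeR adjusted p = 0.211) and was also called lower by DESeq2 alone, and Srebf1 was at 0.18 ± 0.42. At this age oligodendrocytes are laying down myelin, which is rich in cholesterol. Summed oligodendrocyte markers were 11976 to 25051 CPM in p150-negative and 17906 to 27545 CPM in p150-positive cerebella, and 0 of 8 passed in edgeR, with 1 at an unadjusted p under 0.05 and 1, Ugt8a, called lower by DESeq2. Summed astrocyte markers were 2863 to 5256 and 4094 to 5747 CPM, and 1 of 5, Aqp4, fell (-0.96, adjusted p = 0.00810). The part of either cell type in the members' levels was not tested.

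**Figure D4:**
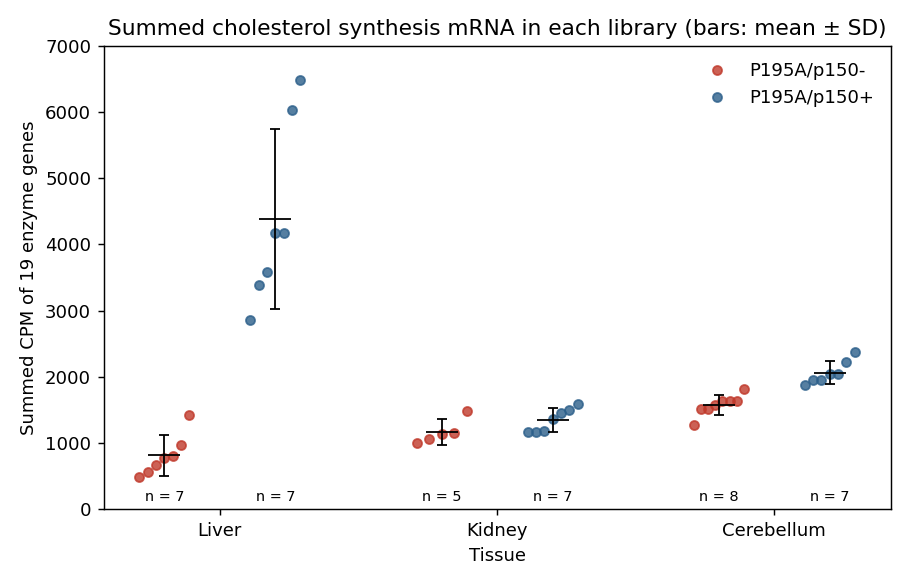
Summed CPM of the 19 tested enzyme genes in each library, by tissue, with P195A/p150- in red and P195A/p150+ in blue (points) and the mean ± SD as black bars. The groups stand apart in liver (494 to 1418 against 2866 to 6481 CPM) and, by less, in cerebellum, and overlap in kidney.

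The genotype effect was then compared between tissues in 1 fit over both, with a term for genotype by tissue. It was lower in liver than in kidney for 16 of 26 members and higher for 0, where 1.5% of 12970 genes differed in either direction. Against cerebellum it was lower in liver for 20 of 26 and higher for 0, where 2.67% of 14063 genes differed. The median differences in log2 fold change were -2.24 and -2.01. With the animal as a replicate block, since tissues came from the same mice, the counts were 12 and 18 members, and 119 and 196 of all genes differed in place of the shares above. Both comparisons share the liver libraries.

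Among the members, the difference from kidney ran from -4.73 ± 0.72 for Sqle (adjusted p = 1.74e-04) to 1.30 ± 0.64 for Insig2 (adjusted p = 0.529). Msmo1 differed by -3.93 ± 0.49 from kidney and by -3.42 ± 0.38 from cerebellum (adjusted p = 7.62e-07). Insig1 differed from both, by -2.52 ± 0.61 and -2.43 ± 0.47, and Stard4 by -2.76 ± 0.44 and -2.16 ± 0.48. Srebf2 (-0.61 ± 0.56 and -1.28 ± 0.37) and Scap (0.00 ± 0.50 and -0.70 ± 0.28) passed in neither comparison, with adjusted p of 0.891 and 0.0514 for Srebf2.

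**Figure D5:**
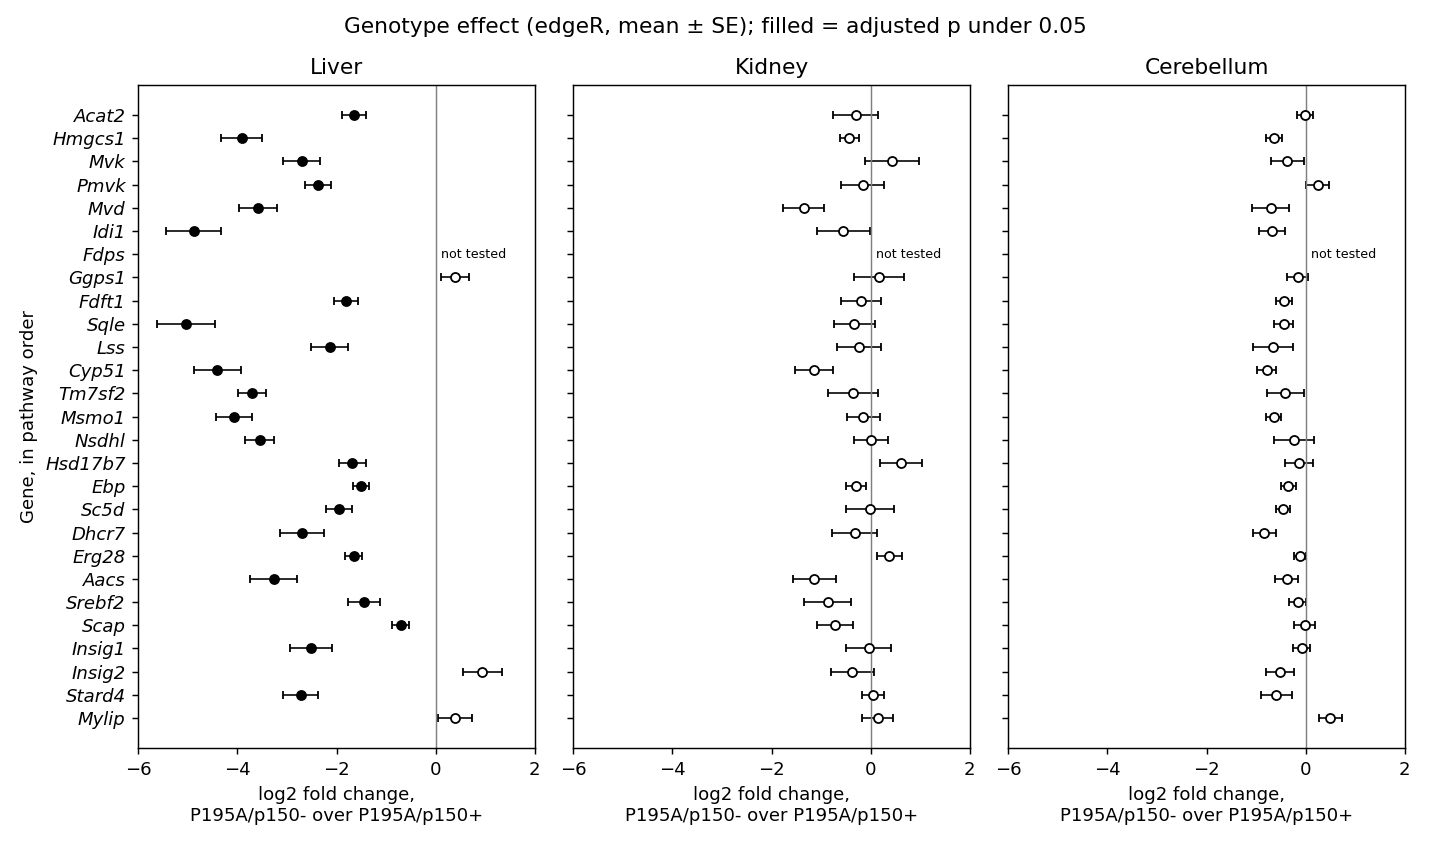
Log2 fold change of the 27 genes, P195A/p150- over P195A/p150+, with its SE in liver, kidney and cerebellum (edgeR, filled points for an adjusted p under 0.05, Fdps not tested). In liver 23 points are filled and lie below 0, and no point is filled in kidney or cerebellum.

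The p150-positive tissues differed in their levels to begin with. Summed enzyme mRNA was 2866 to 6481 CPM in p150-positive livers, 1869.8 to 2369 CPM in cerebella and 1162 to 1595 CPM in kidneys. The 7 p150-negative livers, at 494 to 1418 CPM, overlapped the p150-positive kidneys and lay below the p150-positive cerebella. Ggps1, the isoprenoid branch gene, had another order: 29.7 CPM per kb in p150-positive cerebella, 9.58 in kidneys and 1.95 in livers. These levels are descriptions, and were not tested between tissues.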

How the data were processed

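Organs had been frozen in TRIzol, and DNase-treated RNA went into Nextera XT libraries, per the labels' protocols. The authors deposited whole-number counts of reads per gene. Per the submitters' processing notes, FastQC 0.11.3, SAMtools 1.2, Picard 1.134, HTSeq 0.4.1 and STAR 2.4.2a were used with GRCm38 (mm10). The annotation release and strand setting are not given in the sources used here.

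The 46 columns were matched to samples by title, and 5 libraries with RNA of another organ were left out. Entries numbered 53471, of which 6 repeated identifiers with identical counts were used once, and 3433 entries without a symbol held 0.267% of counts. CPM are counts per 1000000 library counts. edgeR 4.0.16 (R 4.3.3) was run per tissue with TMM scaling, filterByExpr (minimum count 10, minimum total 15) and the quasi-likelihood test, adjusted over all genes tested, and was tested on simulated data. SE is the log2 fold change divided by the root of F. DESeq2 1.42.0 was an alternative. Same-numbered libraries came from the same animal, and their deviations from the group means correlated by -0.01 to 0.25 between liver and kidney (11 animals) and -0.01 to 0.26 between liver and cerebellum (13 animals).

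Gene lengths, overlaps and shared 50-base words are from GENCODE M21, and promoters from RefSeq GRCm38.p6. Every member is named, as are up to 4 genes of each other list with the smallest adjusted p in a tissue and Srebf1, Acat3 and Idi2. One gene of these lists is not reported here. Members, lists and tests were chosen with earlier results of these data known. Other settings of scaling, filter, covariate and library choice are given at the end.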

Additional observations from a re-analysis of the deposited data

Results flagged for a closer look

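Each animal's level of each member, and its summed enzyme level, was compared with the rest of its group by Dixon's test. In 168 tests, 27 genes and the sum in each of 6 groups, 32 values stood apart, where chance flags about 1 in 20 groups. Members share libraries, so these are not independent. In p150-negative livers animal 9 was high, with CPM values of Acat2 67.0, Mvk 21.3, Sqle 22.5, Lss 70.2, Cyp51 48.9, Tm7sf2 26.1, Msmo1 65.8, Dhcr7 35.7, Insig1 148. In p150-positive livers animal 12 was high for Pmvk (187 CPM). In p150-negative kidneys animal 3, of 0.27 M counts, stood apart with CPM values of Mvk 66.9, Pmvk 0, Nsdhl 130.01, Hsd17b7 85.4, Aacs 0, Insig2 0. In p150-positive kidneys animal 5 stood apart with Mvk 1.54, Srebf2 149, Scap 118 CPM, and animal 7 with Cyp51 355 CPM. In p150-negative cerebella animal 11, of 0.94 M counts, stood apart with CPM values of Pmvk 153, Ggps1 39.2, Tm7sf2 0, Hsd17b7 4.23, Insig2 12.7. In p150-positive cerebella animal 5 was high, with Acat2 90.4, Fdft1 155, Lss 64.4, Msmo1 348 CPM, and animal 13 stood apart with Ggps1 194.6, Sc5d 155, Insig1 141 CPM.

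The genotype effect differed between tissues by edgeR's genotype by tissue term. The differences in log2 fold change, liver minus kidney, were Hmgcs1 -3.47, Mvk -3.02, Pmvk -2.25, Mvd -2.26, Idi1 -4.39, Sqle -4.73, Cyp51 -3.24, Tm7sf2 -3.40, Msmo1 -3.93, Nsdhl -3.54, Hsd17b7 -2.22, Ebp -1.21, Dhcr7 -2.42, Erg28 -2.01, Insig1 -2.52, Stard4 -2.76. Liver minus cerebellum they were Acat2 -1.64, Hmgcs1 -3.28, Mvk -2.35, Pmvk -2.59, Mvd -2.90, Idi1 -4.23, Fdft1 -1.36, Sqle -4.60, Cyp51 -3.62, Tm7sf2 -3.33, Msmo1 -3.42, Nsdhl -3.35, Hsd17b7 -1.56, Ebp -1.16, Sc5d -1.49, Dhcr7 -1.85, Erg28 -1.55, Aacs -2.90, Insig1 -2.43, Stard4 -2.16. All 36 differences were negative.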

How the results depend on the processing

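The liver count of 23 lower members was 23 to 24 under every alternative run, and 23 without any 1 library, and the median stayed between -2.84 and -2.26. The count of higher members in liver was 0 to 1 without 1 library, the 1 being Insig2 without p150-positive animal 13. In kidney the count of lower members was 1 with DESeq2, 1 without libraries under 1 M counts, and 0 to 1 without 1 library. Over all genes, lower calls in kidney numbered 37 in the main fit, 159 with DESeq2 and 92 without libraries under 1 M counts. They numbered 0 with all labelled libraries and 17 with animal identifier letters as a block. When 1 of animals 1, 4, 6, 7, 8, 9, 10, 13 or 16 was left out, they numbered 13 to 22. The kidney median was 0.11 with all labelled libraries. In cerebellum the count of lower members was 2 with all labelled libraries, 2 with RLE size factors, 2 with no expression filter, 5 with DESeq2, 1 with animal identifier letters as a block and 3 without libraries under 1 M counts. It was 0 to 3 without 1 library: 3 without p150-negative animal 11 or 16, and 1 without p150-positive animal 13 (Sc5d). Over all genes, lower calls in cerebellum numbered 36 in the main fit, 113 with DESeq2 and 64 without animal 11. They numbered 18 to 22 when 1 of animals 3, 4, 6, 10, 12 or 15 was left out. For the other cerebellar settings named, the count over all genes is not given here, so the member counts there stand without that background. The cause of these moves was not tested. With the animal number as a replicate block, the genotype effect differed in 12 members between liver and kidney and 18 between liver and cerebellum, in place of 16 and 20. No called value changed sign. Depth limits the low members: Idi1, Sqle and Fdps had 0 reads in 2 or 3 p150-negative livers. The kidney of 0.27 M counts (animal 3) had 0 reads for more abundant members too. Among these were Insig2 (94.1 to 146 CPM in p150-positive kidneys) and Acat2 (52.7 to 114 CPM). Its Nsdhl (130 CPM) and Erg28 (167 CPM) lay above the p150-positive range. The reason was not tested, and its zeros are uninformative.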

Other observations

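In the libraries left out for RNA of another organ, the 19 enzyme genes summed to 1029 CPM in the liver-labelled library of p150-negative animal 2, to 704 to 2251 CPM in the 3 kidney-labelled libraries and to 3658 CPM in the cerebellum-labelled library of p150-positive animal 7. Kidney Cyp7b1, which hydroxylates oxysterols, was higher in all 5 p150-negative kidneys than in any p150-positive kidney (9.36 to 115 against 0 to 6.59 CPM). How many of all kidney genes stand apart in this way was not counted. Cyp7b1 did not pass the test (2.65 ± 0.72, edgeR adjusted p = 0.130), though DESeq2 called it higher. Vldlr in liver was at 1.24 ± 0.54 (adjusted p = 0.168) and Scarb1, the HDL receptor gene, at 0.63 ± 0.28 (adjusted p = 0.176).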
